A study of Mus musculus with 7 samples.

Results

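The RNA of the CAST-/129+ clone was compared with that of the CAST+/129- clone, which are 2 of the 7 samples of the series and were identified by their genotype labels. The pair was picked with its like Sox2 levels already known. Both clones derive from F123, a hybrid mouse embryonic stem cell (ESC) line from a cross of Mus musculus castaneus (CAST) with a 129 strain, and both carry a CRISPR/Cas9 deletion of the distal super-enhancer (SE) of Sox2 on 1 allele. In CAST-/129+ the SE was removed from the CAST allele, and in CAST+/129- it was removed from the 129 allele, so that the clones share the number of SE copies and differ in which copy is left. Each genotype was represented by 1 clone and 1 RNA-seq library, so that allele, clone and culture cannot be told apart in any value given here. After transfection the cells had recovered on fibroblast feeders, and cells were passaged without feeders before harvest. The wild type F123 library (CAST+/129+) and the library of the biallelic deletion (CAST-/129-) entered no ratio, and their levels are given beside some genes as values.

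Sox2 is a transcription factor that works with Oct4 (Pou5f1) and Nanog to hold ESCs in the pluripotent state. An SE is a cluster of enhancers with a high load of transcription factors and of H3K27ac, a histone mark of active enhancers and promoters, and RNA is often transcribed from it. When ESCs leave the pluripotent state they can turn on genes of the primed epiblast, of the primitive streak from which mesoderm and endoderm form, of the primitive endoderm that makes the yolk sac, or of the trophoblast that makes the placenta. Genes of these programs, and the secreted Wnt, Nodal and FGF factors that steer them, were followed in both clones.

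Levels are given as FPKM, the distinct alignments (counts) on the exons of a gene scaled to the exon length in kb and to the library's counts on genes. Windows outside genes are given as CPM, which is scaled to the library in the same way and not to length. The CAST+/129- library held 12486398 counts on genes and the CAST-/129+ library 6078945, and each distinct alignment stood for 2.02 and 2.03 reads. For a gene with 1 kb of exon, 3 counts were 0.240 FPKM in CAST+/129- and 0.493 FPKM in CAST-/129+. A fold is followed in parentheses by its 95% interval, from an exact binomial calculation on both counts. These intervals cover counting error only and take each count as independent. Reads were sequenced from both ends of a fragment, and whether both ends stand as separate counts was not checked. If they do, the intervals are too narrow. With 1 library a clone no difference has a test or a replicate check. The log2 ratio of CAST-/129+ to CAST+/129- was taken after a pseudo-value of 4 was added to each FPKM, so it understates differences of low genes, while a fold printed with its interval is the plain ratio of the FPKM values. A gene is said to pass 2-fold or 3-fold, or to lie within 1.5-fold, by the ratio with the pseudo-value only, so that a low gene can have a large plain ratio and not pass.

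Both clones expressed the genes that define ESCs. Pou5f1, the gene of Oct4, was at 206 FPKM in CAST-/129+ and 131 FPKM in CAST+/129-, and Nanog was at 76.2 FPKM in CAST-/129+ and 115 FPKM in CAST+/129-. Markers of fibroblasts, the cells of a feeder layer, were present at low to moderate levels in both clones: the 27 genes summed to 377 FPKM in CAST-/129+ and 401 FPKM in CAST+/129-, with a median log2 ratio of -0.01 and 0 genes past 3-fold in either direction. The 20 genes of immune cells summed to 62.1 FPKM in CAST-/129+ and 52.6 FPKM in CAST+/129-, again with 0 genes past 3-fold. In wild type and CAST-/129- the fibroblast genes summed to 55.0 and 1364 FPKM, and the immune cell genes to 68.6 and 303 FPKM. The largest log2 ratios of the fibroblast list were -0.97 for Thbs1, a matricellular protein gene, and -0.89 for Lox, a collagen cross-linking enzyme gene, both toward CAST+/129-. The part of these cells in other results was not tested.

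Sox2 is the gene the deletions were aimed at, and its like level in both clones was part of the choice of the pair and is given as a description. It lies at chr3:34548927-34551383 (mm9, plus strand) and was at 72.8 FPKM from 1088 counts in CAST-/129+ and at 81.8 FPKM from 2510 counts in CAST+/129-. The plain ratio was 0.890-fold (0.829 to 0.956), and the log2 ratio was -0.16. With counts taken as independent, the interval left no room for equal levels, and the ratio was far short of the 3-fold threshold. Wild type stood at 174 FPKM and CAST-/129- at 7.38 FPKM, so that both monoallelic clones lay between them.

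RNA from the neighbourhood of the SE differed between the clones. In the 15 kb that follow the SE on the side away from Sox2 (chr3:34664384-34679383), RNA from the strand of Sox2 was at 14.98 CPM (187 counts) in CAST+/129- and at 1.97 CPM (12 counts) in CAST-/129+. This was 7.59-fold (4.24 to 14.9) more in the clone that keeps the SE of the CAST allele. Wild type held 18.7 CPM (465 counts), and CAST-/129- held 0 counts, with an exact Poisson 95% limit of 0.631 CPM. The exact Poisson 95% intervals were 12.9 to 17.3 CPM in CAST+/129-, 17.0 to 20.5 in wild type and 1.02 to 3.45 in CAST-/129+. Over 20 kb the first 2 no longer overlapped, at 12.98 to 17.4 and 19.9 to 23.6 CPM. The study reports, without showing data, that its deletion overlaps the start of the noncoding RNA Peril and that deleted alleles lost this transcript. Whether the RNA counted here is Peril was not tested.

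Inside the 13 kb SE window (chr3:34651384-34664383) the difference on this strand was smaller. RNA was at 5.69 CPM (71 counts) in CAST+/129- and at 2.14 CPM (13 counts) in CAST-/129+, a difference of 2.66-fold (1.46 to 5.24). In CAST+/129- 31 of the 71 counts lay in the last kb of the window, and the signal was highest 114 kb from the Sox2 3′ end, at 44 counts in 1 kb. No 1 kb bin of the 15 kb after the window held more than 3 counts in CAST-/129+. On the opposite strand the order was turned: the window held 30 counts in CAST+/129- and 25 in CAST-/129+, or 2.40 and 4.11 CPM, and the interval of the ratio of CAST+/129- to CAST-/129+ ran from 0.332 to 1.04. CAST-/129- held 9 counts on this strand, or 1.54 CPM. On that strand a difference was not detectable at this depth. These windows were set by distance from Sox2 and not by the cut sites, and reads were not split by allele.

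**Figure D1:**
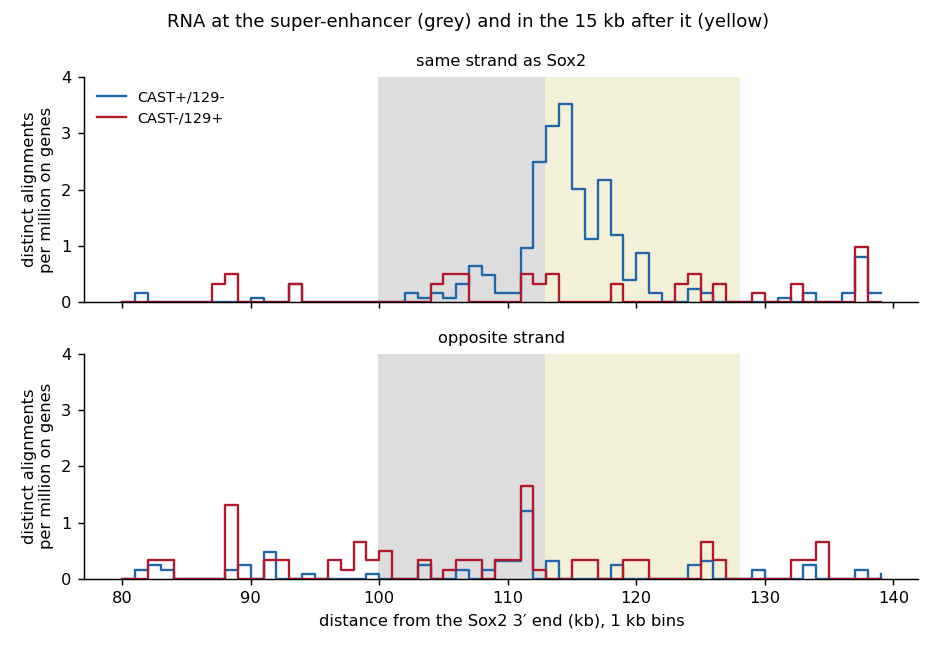
Distinct alignments in CPM (vertical axis) in 1 kb bins by distance from the Sox2 3′ end (horizontal axis), for CAST+/129- (blue) and CAST-/129+ (red), with the strand of Sox2 above and the opposite strand below. The grey band is the 13 kb SE window and the yellow band the 15 kb after it, where 187 counts of CAST+/129- form a peak and CAST-/129+ has 12.

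Other genes around the SE did not pass the threshold. Of 34 annotated genes within 2 Mb, 15 had a mean of at least 1 FPKM, and 0 passed 3-fold in either direction. Without Sox2 their log2 ratios ran from -0.22 for Bbs7, a gene of the ciliary BBSome, to 0.82 for Anxa5, the gene of annexin A5, with a median of 0.02. The plain ratio of Anxa5 was 1.84-fold (1.67 to 2.03), and that of Usp13, a deubiquitinase gene, was 1.60-fold (1.28 to 1.99). Both intervals left out a ratio of 1. In the other direction the intervals of Bbs7, at 0.713-fold (0.533 to 0.944), Ttc14, at 0.867-fold (0.783 to 0.958), and Ccna2, at 0.929-fold (0.876 to 0.986), also left out a ratio of 1. They end close to 1, and could hold it if both ends of a fragment were counted. Atp11b, a phospholipid flippase gene and the first expressed neighbour beyond the SE, was at 30.7 FPKM in CAST-/129+ and 30.6 FPKM in CAST+/129-, and Fxr1, an RNA-binding protein gene on the other side, was at 133 FPKM in CAST-/129+ and 129 FPKM in CAST+/129-. The lincRNA Sox2ot, which overlaps Sox2, was at 0.423 FPKM in CAST-/129+ and 0.543 FPKM in CAST+/129-.

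Across the genome 28 genes were at least 3-fold higher in CAST-/129+ and 5 were at least 3-fold higher in CAST+/129-, of 31498 genes measured (0.0889% and 0.0159%). Only a gene with a mean of at least 4 FPKM can pass this threshold, and of the 9873 such genes 0.284% and 0.0506% passed. At 2-fold, 86 genes were higher in CAST-/129+ and 51 in CAST+/129- (0.273% and 0.162% of all genes). Of the genes with a mean of at least 4 FPKM, 76 and 41 passed 2-fold (0.77% and 0.415%). The 2 libraries were otherwise close: 9208 of these 9873 genes (93.3%) differed by less than 1.5-fold with the pseudo-value, and the median log2 ratio was -0.04. Over all genes measured the median was 0.00, with 11284 genes above 0, 11158 below 0 and 9056 without counts in both clones, and the counts of gene groups given later stand beside these values and the shares above. Just inside the threshold were Gpc3 at 1.69 and Hsdl1 at -1.62 on the log2 scale, and just outside were Prl7a1 at 1.58 and 1190005I06Rik at -1.51.

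**Figure D2:**
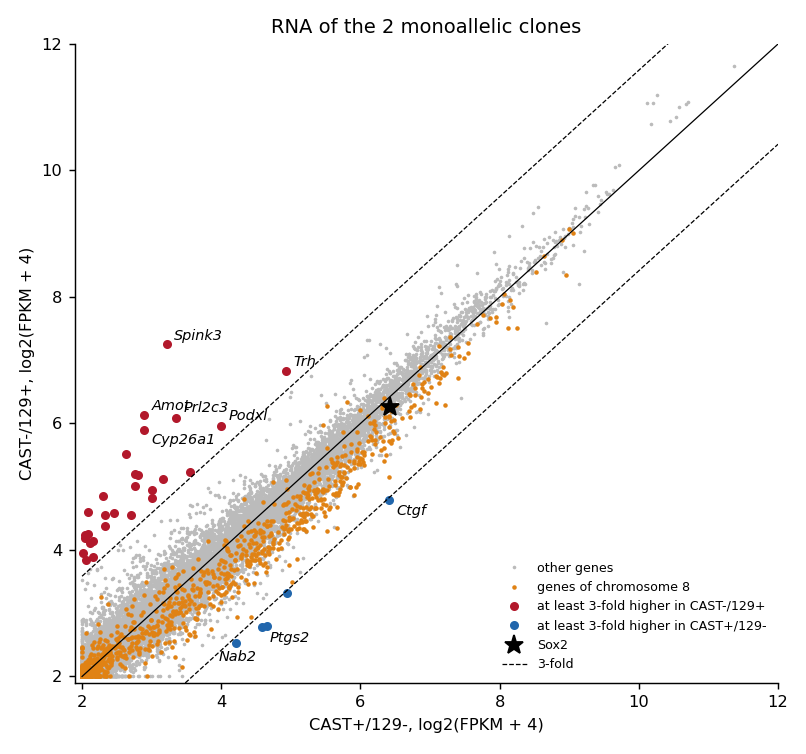
Each point is a gene, placed by log2(FPKM + 4) in CAST+/129- (horizontal axis) and in CAST-/129+ (vertical axis). Red points are the 28 genes at least 3-fold higher in CAST-/129+, blue points the 5 genes at least 3-fold higher in CAST+/129-, orange points genes of chromosome 8, the star Sox2, and dashed lines mark 3-fold. Of the red points, 10 are under 1 FPKM in CAST+/129-, and their median there is 2.35 FPKM.

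Of the gene families drawn up after the values were seen, the prolactins had the most members past 3-fold toward CAST-/129+. These hormones are made by the placenta in rodents, most of them by trophoblast giant cells and spongiotrophoblast, and the measured genes all lie on chromosome 13, with the Prl2c2 and Prl2c3 genes apart from the cluster that holds most others. The family was singled out after its values were seen, and 5 of its 25 measured members passed 3-fold toward CAST-/129+ and 0 toward CAST+/129-, beside 0.0889% and 0.0159% of all genes. Another 2 passed 2-fold, and 9 had 0 counts in both clones. Several members are near-identical in sequence, so that counts of single genes within Prl2c and Prl3d are uncertain, and the summed level of the family, 221 FPKM in CAST-/129+ against 18.6 FPKM in CAST+/129-, is the safer value.

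Prl3d1, which encodes placental lactogen I, the hormone of trophoblast giant cells, was at 24.97 FPKM (129 counts) in CAST-/129+ and 0.942 FPKM (10 counts) in CAST+/129-, a ratio of 26.5-fold (14.0 to 56.6). It was at 0 counts in wild type and in CAST-/129-. Prl4a1 was at 41.6 FPKM (219 counts) in CAST-/129+ and 2.22 FPKM (24 counts) in CAST+/129-, with 1 count in wild type and 0 in CAST-/129-. For Prl3d1 in CAST-/129- the limit of 3 counts is 0.604 FPKM, and the exact Poisson interval of 0 counts reaches 0.742 FPKM. Both genes were thus counted in the monoallelic clones, at a low level in CAST+/129-, and hardly or not at all in the other libraries. Prl2a1 was at 32.9 FPKM (177 counts) in CAST-/129+ and 2.81 FPKM (31 counts) in CAST+/129-, and Prl2c3 and Prl2c2, which encode proliferins, were at 64.1 against 6.22 FPKM and at 24.2 against 4.05 FPKM. Unlike the former pair, Prl2c3 was also high in CAST-/129- (44.9 FPKM), and so was Prl2c2 (22.5 FPKM). Prl3d2 and Prl3d3, close copies of Prl3d1, had 18 and 12 counts in CAST-/129+ and 0 in CAST+/129-, where the limit of 3 counts is 0.277 and 0.282 FPKM.

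The 250 bases before the annotated starts of Prl3d1, Prl4a1 and Prl2a1 are printed because these 3 members past 3-fold share a run of bases, which was noticed after their values were seen. They are given 5′ to 3′ from NCBIM37 (mm9), plus strand, at chr13:27185831-27186080, chr13:28107831-28108080 and chr13:27893273-27893522. Capitals mark the longest run that all 3 share, TATATAGGAGG, and every match, on either strand, to the GATA motifs AGATAA and TGATAA, the AP-1 motif TGANTCA and the SOX motif ACAATG.
Prl3d1: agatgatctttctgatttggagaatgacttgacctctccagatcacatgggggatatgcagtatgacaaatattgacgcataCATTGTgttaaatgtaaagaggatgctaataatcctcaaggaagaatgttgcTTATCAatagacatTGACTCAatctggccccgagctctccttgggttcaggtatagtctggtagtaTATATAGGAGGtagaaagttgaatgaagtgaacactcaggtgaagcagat
Prl4a1: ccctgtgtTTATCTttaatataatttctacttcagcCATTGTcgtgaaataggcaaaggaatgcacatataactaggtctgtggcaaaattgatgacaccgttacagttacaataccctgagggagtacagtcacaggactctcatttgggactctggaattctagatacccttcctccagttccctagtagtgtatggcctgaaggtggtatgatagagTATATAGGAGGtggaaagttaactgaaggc
Prl2a1: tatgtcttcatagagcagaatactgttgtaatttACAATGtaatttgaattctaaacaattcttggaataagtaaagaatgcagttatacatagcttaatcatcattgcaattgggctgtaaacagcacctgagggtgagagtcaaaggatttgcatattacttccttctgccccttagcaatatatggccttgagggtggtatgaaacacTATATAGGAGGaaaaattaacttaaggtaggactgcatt
The shared run starts 50, 30 and 39 bases before the annotated start, and is held on the gene's strand by 9 of 21993 windows of this length before protein-coding genes, all 9 of them before prolactin genes. Of the 5 prolactin genes past 3-fold, the 3 printed hold the run, by which it was found, and 2 do not. A GATA motif stood before 14 of the 25 prolactin genes, against 15.4% of all protein-coding genes, an AP-1 motif before 8 against 5.98%, and a SOX motif before 6 against 9.07%. Over all 28 genes higher in CAST-/129+ these counts were 8, 3 and 3. The genes share descent, and a match is a description of the letters only.

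Of the 17 measured genes of the trophectoderm list only Prl2c2 passed 3-fold, and the median log2 ratio was 0.16, beside 0.00 over all genes measured. Krt8 and Krt18, keratins of simple epithelia, were at 263 FPKM in CAST-/129+ and 139 FPKM in CAST+/129- and at 229 FPKM in CAST-/129+ and 133 FPKM in CAST+/129-. Phlda2, an imprinted placental growth regulator, was at 9.996 FPKM in CAST-/129+ and 21.6 FPKM in CAST+/129-, and so was lower in CAST-/129+.

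Some regulators of the primitive streak and of the axial mesendoderm were among the genes higher in CAST-/129+. Of 17 genes of the streak and mesoderm list 3 passed 3-fold in this direction and 0 in the other, and 5 passed 2-fold. Log2 ratios were above 0 for 14 and below 0 for 3, where 11284 of all 31498 genes were above 0 and 11158 below 0. The median was 0.53, beside 0.00 over all genes. Lhx1, a homeodomain factor of the node and its precursors, was at 14.9 FPKM (373 counts) in CAST-/129+ and 0.117 FPKM (6 counts) in CAST+/129-, which is 127.7-fold (58.1 to 350.2). Cer1, a secreted antagonist of Nodal, BMP and Wnt, had 151 counts (14.3 FPKM) and 3 counts (0.138 FPKM), a ratio of 103-fold (34.7 to 507). Fgf8, the FGF that streak cells need to migrate, was at 19.5 FPKM (160 counts) in CAST-/129+ and 1.01 FPKM (17 counts) in CAST+/129-. All 3 genes were thus low in CAST+/129- and also in wild type, where they were at 0.0487, 0.0462 and 0.119 FPKM. They were not low in CAST-/129-, where they were at 10.3, 37.3 and 21.4 FPKM.

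Gsc and Mixl1, homeobox genes of the organizer and of the streak, missed the threshold and were looked up after their values were seen. Gsc was at 8.45 FPKM in CAST-/129+ and 0.253 FPKM in CAST+/129- and Mixl1 at 7.10 FPKM in CAST-/129+ and 0.209 FPKM in CAST+/129-. T (Brachyury) was at 10.2 FPKM in CAST-/129+ and 3.15 FPKM in CAST+/129-, and CAST-/129- was higher than both at 36.2 FPKM. Of the Nodal pathway list, 19 genes with a median of 0.14, Cer1 alone passed 3-fold. Inhba, which encodes a subunit of activin A, a ligand of the same type of receptors as Nodal, went the other way, at 5.40 FPKM in CAST-/129+ and 20.2 FPKM in CAST+/129-, a ratio of CAST+/129- to CAST-/129+ of 3.75-fold (2.89 to 4.93).

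Secreted antagonists of Wnt signalling made up a further group. Sfrp proteins bind Wnt ligands, and Dkk1 blocks the Lrp5 and Lrp6 co-receptors. Of 22 genes of the Wnt target list 3 passed 3-fold, all toward CAST-/129+ and all of them antagonists, beside 0.0889% of all genes. The median log2 ratio was 0.33, beside 0.00 over all genes. Dkk1 was at 15.1 FPKM (223 counts) in CAST-/129+ and 0.264 FPKM (8 counts) in CAST+/129- and Sfrp5 at 13.2 FPKM (153 counts) in CAST-/129+ and 0.337 FPKM (8 counts) in CAST+/129-. Sfrp1 was at 28.3 FPKM (751 counts) in CAST-/129+ and 2.77 FPKM (151 counts) in CAST+/129-, and it was the only one of the 28 genes that was higher in wild type (59.3 FPKM) than in either clone. The Wnt target genes that do not encode secreted antagonists did not pass 3-fold with the pseudo-value. Examples were Sp5, at 4.07 FPKM in CAST-/129+ against 0.343 FPKM in CAST+/129-, and Axin2, at 3.88 against 1.70 FPKM. The plain ratio of Sp5 was 11.9-fold (5.795 to 27.4). Among all 9 measured genes of the Sfrp, Dkk and Wif1 families, a set drawn up after the values were seen, the others had log2 ratios between -0.16 (Dkk3) and 0.12 (Sfrp2).

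In the primed epiblast list (14 genes, median 0.34) Fgf5, the classical marker of the primed state, passed 3-fold at 26.8 FPKM (408 counts) in CAST-/129+ and 4.003 FPKM (125 counts) in CAST+/129-. It was at 0.129 FPKM in wild type and 24.5 FPKM in CAST-/129-. Car4, a carbonic anhydrase gene, was at 86.7 FPKM in CAST-/129+ and 28.2 FPKM in CAST+/129- and passed 2-fold but not 3-fold with the pseudo-value, while its plain ratio was 3.08-fold (2.79 to 3.39). In the primitive endoderm list (16 genes, median 0.33) none passed 3-fold, and 2 passed 2-fold toward CAST-/129+. Gata4 was at 12.96 FPKM in CAST-/129+ and 1.82 FPKM in CAST+/129- and Foxa2, a pioneer factor of endoderm and node, was at 9.02 FPKM in CAST-/129+ and 0.642 FPKM in CAST+/129-. Wild type had more Gata4 (17.4 FPKM) than either clone and little Foxa2 (1.36 FPKM), so that the pair did not share a pattern across the 4 libraries. In CAST-/129- Gata4 was at 3.94 FPKM and Foxa2 at 11.4 FPKM.

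Cyp26a1, which breaks down retinoic acid and is itself induced by it, was at 55.6 FPKM (599 counts) in CAST-/129+ and 3.39 FPKM (75 counts) in CAST+/129-, a ratio of 16.4-fold (12.9 to 21.1). No other gene of the 18 on the retinoic acid list passed 3-fold, and the list's median was 0.03. Stra8, a retinoic acid target of germ cells, was at 5.02 FPKM in CAST-/129+ and 12.5 FPKM in CAST+/129-. The list was split in direction, with 10 log2 ratios above 0 and 8 below 0. Of 39 imprinted genes only Igf2, the paternally expressed growth factor gene on chromosome 7, passed 3-fold, at 32.3 FPKM (1077 counts) in CAST-/129+ and 2.99 FPKM (205 counts) in CAST+/129-. It was higher still in CAST-/129- (70.8 FPKM). Nnat, paternally expressed as well, was at 21.9 FPKM in CAST-/129+ and 7.97 FPKM in CAST+/129-, and the median of the list was 0.15.

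The gene with the largest log2 ratio of all was Spink3 (chromosome 18), a trypsin inhibitor of pancreas and yolk sac, at 149 FPKM (382 counts) in CAST-/129+ and 5.31 FPKM (28 counts) in CAST+/129-, a ratio of 28.0-fold (19.08 to 42.7). Wild type had 0.952 FPKM. Apob, the structural apolipoprotein of lipoprotein particles, was at 10.3 FPKM (873 counts) in CAST-/129+ and 0.155 FPKM (27 counts) in CAST+/129-, and Apoa1, not past the threshold and looked up after its values were seen, had 25 counts against 0, where the limit of 3 counts is 0.194 FPKM. Of 15 plasma apolipoprotein genes, a family drawn up after the values were seen, Apob alone passed 3-fold, and the median log2 ratio was 0.04. Mogat2, a monoacylglycerol acyltransferase gene of fat absorption, was at 19.4 FPKM in CAST-/129+ and 2.49 FPKM in CAST+/129-, Pla2g1b, a secreted phospholipase gene, at 30.7 FPKM in CAST-/129+ and 4.94 FPKM in CAST+/129-, and Pga5, a pepsinogen gene, at 16.7 FPKM in CAST-/129+ and 1.02 FPKM in CAST+/129-. Apob was at 0.372 FPKM in wild type and 0.835 FPKM in CAST-/129-, so that CAST-/129+ was the high library among all 4.

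Amot, second in order, encodes angiomotin, a junctional protein that holds the co-activator Yap in the cytoplasm. It is X-linked and was at 66.0 FPKM (3369 counts) in CAST-/129+ and 3.42 FPKM (359 counts) in CAST+/129-, a ratio of 19.3-fold (17.3 to 21.6), with 8.47 FPKM in wild type and 38.3 FPKM in CAST-/129-. Of the other X-linked genes, Irs4, an insulin receptor substrate gene, had 437 counts against 3, a ratio of 299-fold (102 to 1456). Dgkk, a diacylglycerol kinase gene, was at 13.6 FPKM in CAST-/129+ and 0.459 FPKM in CAST+/129-, and Gpc3, a glypican gene, was at 33.8 FPKM in CAST-/129+ and 7.68 FPKM in CAST+/129-. These 4 genes were chosen as past 3-fold toward CAST-/129+, so their shared direction follows from that choice. The median log2 ratio of X was 0.00 over 408 genes with a mean of at least 4 FPKM, of which 207 were below 0. At 2-fold, counted over all measured genes of X and not only these 408, 9 genes passed toward CAST-/129+ and 1 toward CAST+/129-. These counts stand beside 86 and 51 of all 31498 genes.

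Among the rest of the 28 genes were those of cell surface proteins and of a secreted peptide. Clic6, of the intracellular chloride channel family, was at 20.3 FPKM (484 counts) in CAST-/129+ and 0.245 FPKM (12 counts) in CAST+/129-, the steepest plain ratio in the group with at least 10 counts in each clone, at 82.8-fold (47.0 to 161). Podxl, which encodes the sialomucin podocalyxin, was at 58.4 FPKM in CAST-/129+ and 11.98 FPKM in CAST+/129-, and Cxcr4, the receptor for Cxcl12 on endoderm and mesoderm precursors, was at 10.8 FPKM in CAST-/129+ and 0.443 FPKM in CAST+/129-. Trh, the gene of thyrotropin-releasing hormone, had the highest level of the 28 in CAST+/129-, at 109 FPKM in CAST-/129+ and 26.5 FPKM in CAST+/129-, and CAST-/129- was like CAST-/129+ at 114 FPKM. Foxq1, a forkhead factor gene, was at 19.9 FPKM in CAST-/129+ and 1.52 FPKM in CAST+/129- and at 14.4 FPKM in wild type.

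Only 5 genes went the other way. Ctgf, a matricellular protein gene and a standard target of Yap, was at 23.5 FPKM (356 counts) in CAST-/129+ and 81.2 FPKM (2524 counts) in CAST+/129-, so that CAST+/129- was 3.45-fold (3.09 to 3.87) higher. Ptgs2, which encodes cyclooxygenase 2, was at 2.86 FPKM (72 counts) in CAST-/129+ and 20.1 FPKM (1039 counts) in CAST+/129-, and Nab2, a co-repressor of Egr factors, at 1.79 FPKM (32 counts) in CAST-/129+ and 14.6 FPKM (536 counts) in CAST+/129-. Both ratios, 7.03-fold (5.53 to 9.05) and 8.15-fold (5.71 to 12.04), lay above that of Ctgf. Hsdl1, a gene of the hydroxysteroid dehydrogenase family on chromosome 8, was at 5.97 FPKM in CAST-/129+ and 26.7 FPKM in CAST+/129-. Gm10393, a predicted gene, rested on 8 counts in CAST-/129+ and 120 in CAST+/129-. Wild type was nearer to CAST-/129+ than to CAST+/129- for 4 of these 5 genes on the log2 scale, against 4168 of the 9873 genes with a mean of at least 4 FPKM. The choice of genes high in CAST+/129- favours this, so nothing is read from it.

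Since Amot and Ctgf both belong to the Yap pathway, 22 known Yap and Taz target genes were looked up after these values were seen. In addition to Ctgf, Ankrd1 passed 2-fold toward CAST+/129- (3.63 FPKM in CAST-/129+ and 12.9 FPKM in CAST+/129-), and Cyr61 was at 41.8 FPKM in CAST-/129+ and 81.7 FPKM in CAST+/129-. Of all members, 11 had log2 ratios above 0 and 11 below 0, and the median was 0.01. In the mesenchymal and contractile list (25 genes, median 0.01) Ctgf alone passed 3-fold, while Cdh2, the gene of N-cadherin, was at 11.2 FPKM in CAST-/129+ and 2.86 FPKM in CAST+/129-, past 2-fold toward CAST-/129+.

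**Figure D3:**
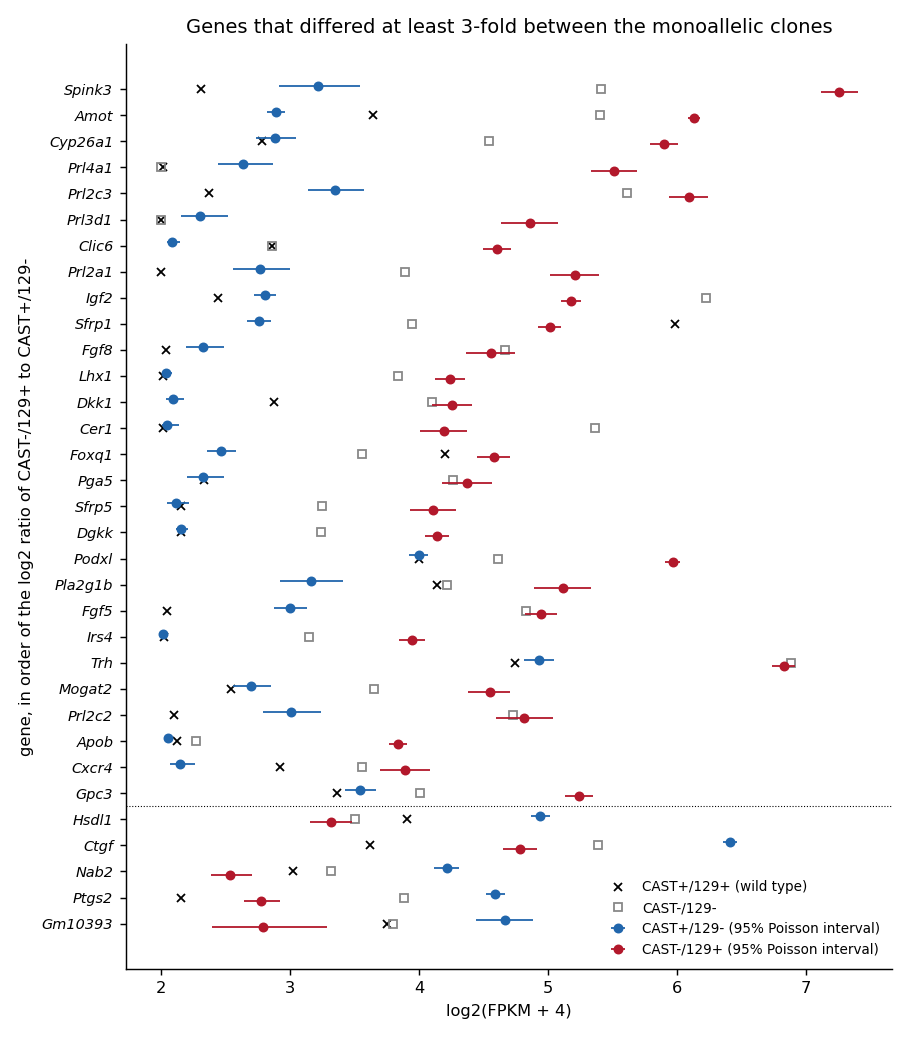
Level of the 33 genes past 3-fold, as log2(FPKM + 4) (horizontal axis), in CAST-/129+ (red) and CAST+/129- (blue) with exact Poisson 95% intervals of the count, in wild type (crosses) and in CAST-/129- (open squares), with genes in order of their log2 ratio. The gap between red and blue follows from the choice of these genes. The crosses and open squares show the other libraries, such as Igf2 at 70.8 FPKM in CAST-/129-.

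Against the other libraries the 28 genes stood as follows. Wild type was nearer to CAST+/129- than to CAST-/129+ for 25 of them, against 5705 of the 9873 genes with a mean of at least 4 FPKM. Wild type was below both clones for 15, between them for 12 and above both for 1, where the 9873 genes had 3926 below, 1901 between and 4046 above. CAST-/129- lay between the clones for 22, above both for 4 (Igf2, Fgf8, Cer1 and Trh) and below both for 2 (Prl4a1 and Prl3d1). Over the 9873 genes it lay between them for 2504, above for 2691 and below for 4678. The median level of the 28 genes was 1.12 FPKM in wild type and 12.6 FPKM in CAST-/129-, beside 2.35 and 24.6 FPKM in CAST+/129- and CAST-/129+. The genes were chosen for a wide gap between the clones with CAST-/129+ high, which favours a place between them, and nearer to CAST+/129-, for any other library, so these counts are a description and nothing is read from them.

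Promoter marks in the parental F123 cells are given as a description, since 13 of the 28 genes were under 1 FPKM in wild type and the choice of genes high in CAST-/129+ favours such genes. In the 2 kb on each side of the start, H3K4me3, a mark of active promoters, had a median of 2.80-fold the chromosome mean over the 28 genes, against 9.99-fold over the 9873 genes. H3K27ac had a median of 1.06-fold against 5.39-fold. More than 5-fold H3K4me3 was found at 8 of the 28 starts, against 76.1% of the starts of the 9873 genes. Among them were Irs4 (13.4-fold), Gpc3 (12.4-fold) and Cxcr4 (10.7-fold). More than 5-fold H3K27ac was found at 2, against 52.1%, namely Sfrp1 (16.4-fold) and Pla2g1b (5.90-fold). At the 5 genes higher in CAST+/129- the medians were 5.04-fold and 4.20-fold. These marks were measured in 1 library each, with no input library used here, and in neither clone. The H3K27ac library held 1576875 distinct alignments and the H3K4me3 library 7108751, so that a low fold of H3K27ac rests on few alignments.

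Of the 25 measured genes of the core and naive pluripotency list 19 had log2 ratios below 0, where 5559 of the 9873 genes with a mean of at least 4 FPKM did. The median was -0.33, beside -0.04 over those genes, and with the pseudo-value none passed 2-fold. The largest was Tet2, the 5-methylcytosine dioxygenase gene, at 9.24 FPKM in CAST-/129+ and 22.01 FPKM in CAST+/129- and a log2 ratio of -0.97, followed by Zfp57, which guards imprints, at 52.1 FPKM in CAST-/129+ and 88.1 FPKM in CAST+/129-. Nanog (-0.57) followed the group and Pou5f1 (0.63) did not. The LIF and Stat3 list, the pathway that supports naive ESCs, had a median of -0.37 and 13 of 15 members below 0, with Pim3 at -0.59. The FGF and ERK target list had a median of -0.38 and 18 of 20 members below 0, led by Dusp6, an ERK phosphatase gene, at 23.7 FPKM in CAST-/129+ and 44.5 FPKM in CAST+/129-. Fgf4, the FGF of ESCs, was at 34.0 FPKM in CAST-/129+ and 37.2 FPKM in CAST+/129-, a log2 ratio of -0.12.

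Genes of the 2-cell state, which a small share of ESCs expresses at any time, had the lowest median of all lists, -0.46. Of 19 members 18 were below 0 and 1 above, where 11158 of all 31498 genes were below 0 and 11284 above. Zscan4e was at 6.03 FPKM in CAST-/129+ and 18.8 FPKM in CAST+/129- and was the 1 member past 2-fold. Zscan4 genes are close copies, and their single counts are uncertain. Of the 29 lists, the streak and mesoderm list had the highest median and the 2-cell list the lowest. The lists of the amino acid response, glycolysis and hypoxia, p53 targets, cholesterol synthesis, interferon response, germline, polycomb repressive complex 2, DNA methylation enzymes, neural genes, BMP signalling and epithelial adhesion had no member past 3-fold, and medians from -0.17 (polycomb) to 0.25 (epithelial adhesion). Some of the written symbols were not analysed here because the annotation does not hold them under these names.

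**Figure D4:**
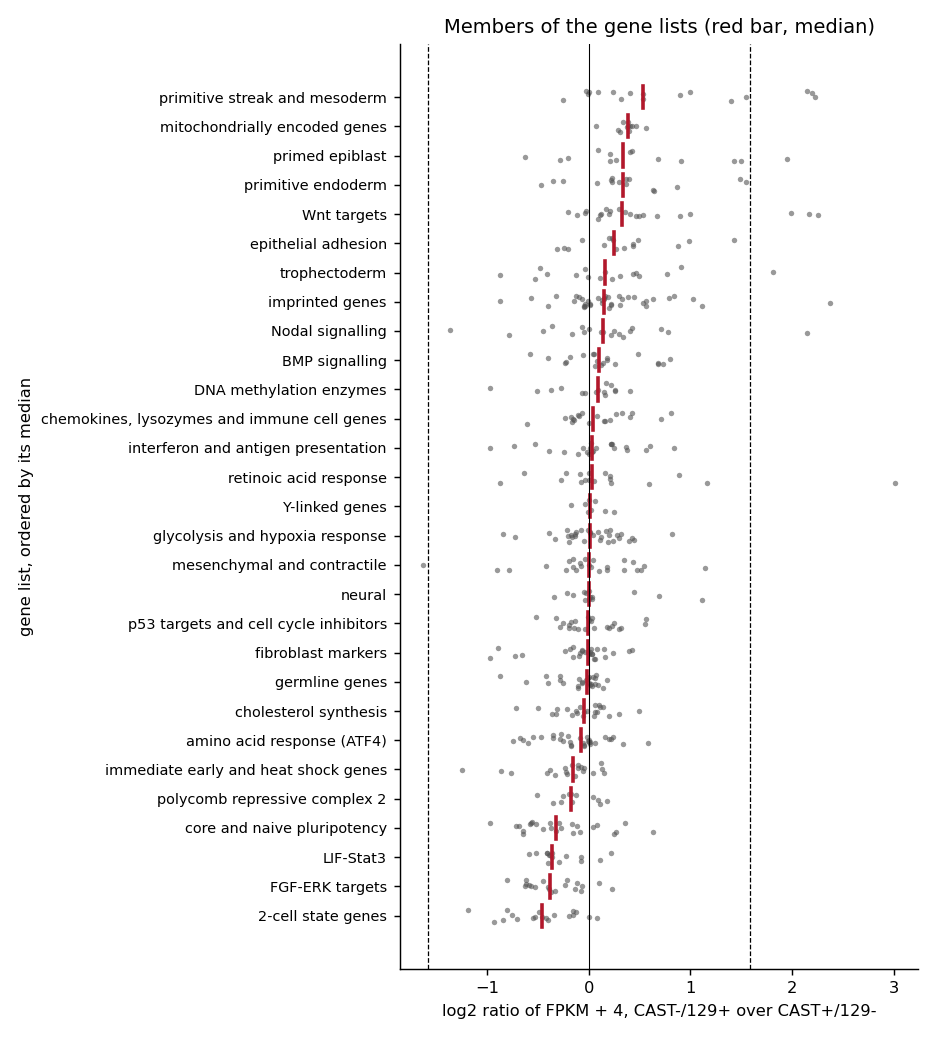
Log2 ratio of CAST-/129+ to CAST+/129- (horizontal axis) for each measured member of the 29 gene lists (grey points), with the median of each list as a red bar and 3-fold as dashed lines. The streak list is at the top with a median of 0.53, and the pluripotency, LIF-Stat3, FGF-ERK and 2-cell lists are at the bottom, with medians from -0.33 to -0.46 and no point past 3-fold.

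Chromosome 8 stood apart as a whole. Over its 553 genes with a mean of at least 4 FPKM the median log2 ratio was -0.42, with quartiles of -0.63 and -0.23, and 507 genes (91.7%) were below 0. Medians of the other autosomes and of X lay between -0.05 and 0.03. Without the pseudo-value, over genes with a mean of at least 20 FPKM, the median plain ratio on chromosome 8 was 0.704. The lower level held along the whole chromosome: of 529 overlapping windows of 25 neighbouring genes all 529 had medians below 0, from -0.65 near Hsdl1 and Adad2 to -0.19 at the start of the chromosome. On the other chromosomes no window of 8846 reached the chromosome 8 median, the lowest being -0.29 on chromosome 7.

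The share of all distinct alignments that lay on chromosome 8 was 4.67% in CAST-/129+ against 6.28% in CAST+/129-. It was 6.05% in wild type and 5.62% in the biallelic clone. CAST-/129+ was thus the low library, and CAST+/129- was close to wild type. Of 51 genes at least 2-fold higher in CAST+/129-, counted over all genes measured, 14 (27.5%) were on chromosome 8. This chromosome holds 1344 of the 31498 genes measured and 5.60% of the genes with a mean of at least 4 FPKM. On the log2 scale with the pseudo-value the 3 largest differences toward CAST+/129- on this chromosome were those of Hsdl1, 1190005I06Rik and Triml1. Rrad, a low gene of a small GTPase, had a steeper plain ratio, 16.4-fold (6.27 to 61.2), from 4 and 135 counts. Jund, the AP-1 factor gene, was at 31.6 FPKM in CAST-/129+ and 80.8 FPKM in CAST+/129-. In the immediate early and heat shock list (median -0.16) the 4 lowest members, Jund, Ier2, Dnajb1 and Junb, are all on this chromosome. Sfrp1 was the 1 gene of chromosome 8 that passed 2-fold toward CAST-/129+ with the pseudo-value, and Mmp15, a membrane metalloproteinase gene, had a plain ratio of 2.04-fold (1.66 to 2.51).

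**Figure D5:**
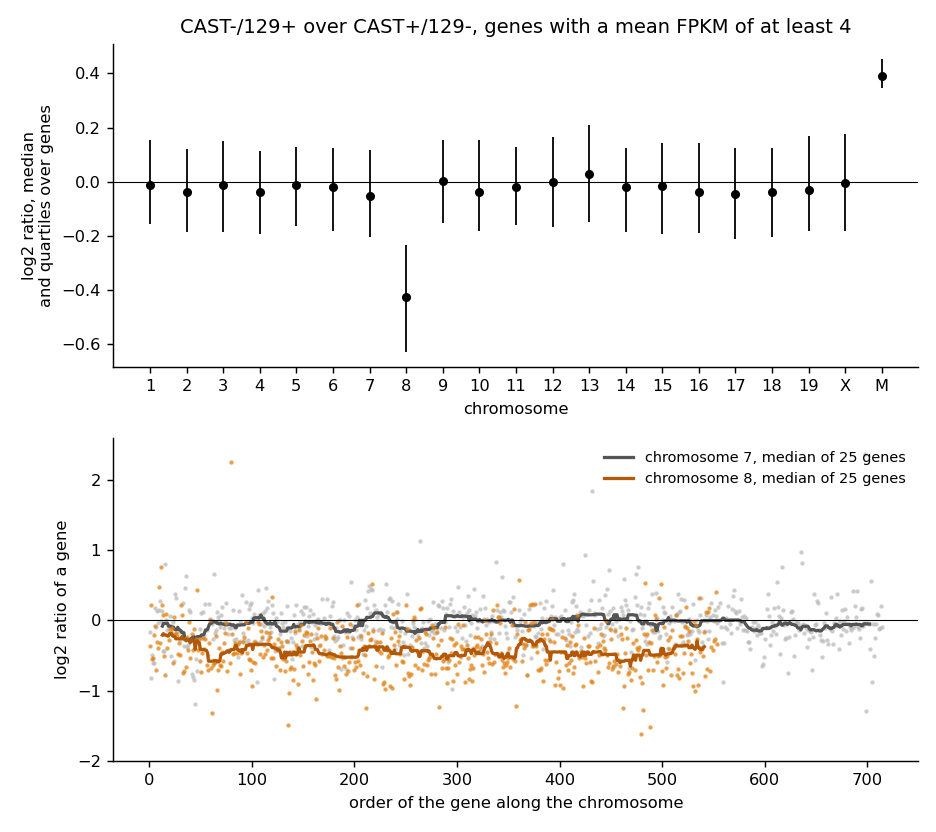
Above, median (points) and quartiles (bars) of the log2 ratio of CAST-/129+ to CAST+/129- over the genes of each chromosome with a mean of at least 4 FPKM. Below, the ratio of single genes in their order along chromosome 8 (orange) and chromosome 7 (grey), with running medians of 25 genes as lines. The chromosome 8 median of -0.42 lies below all others, and its running median stays below 0 from end to end.

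Measures of RNA composition differed between the libraries as well. The 12 mitochondrially encoded genes were all higher in CAST-/129+, with a median log2 ratio of 0.38, and 1.75% of its alignments were mitochondrial against 1.36% in CAST+/129-. Replication-dependent histone genes, whose mRNA lacks a poly(A) tail, were drawn up as a set after the values were seen. They had log2 ratios above 0 in 55 of 68 cases and below 0 in 13, with a median of 0.29. Of all 31498 genes 11284 were above 0 and 11158 below 0, and the other 9056 had no counts in both clones. Annotated small structural RNA genes, also a set drawn up after the values were seen, made up 0.0739% of the counts in CAST-/129+ and 0.0431% in CAST+/129-. The libraries were made from poly(A)+ RNA. The part of these differences in the genes named above was not tested.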

How the data were processed

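PolyA+ strand-specific RNA-seq libraries of CAST-/129+ and CAST+/129- were analysed, 1 for each clone. The authors mapped the reads to mm9 with Novoalign and USeq and deposited lists of aligned positions, 1 line for each distinct alignment, with the number of reads that share it as a count. No allele information was in these files. Each line was taken as 1 count of the transcript on the opposite strand and was assigned by its midpoint to the exons of GENCODE M1 (NCBIM37, equal to mm9), where these belonged to 1 gene only. Genes under 200 such bases were left out, which left 31498. Library sizes were the counts on genes. As in the study's methods, a pseudo-value of 4 was added to FPKM and a 3-fold threshold was used. With 1 library a side no test was run. Exact Poisson and binomial intervals (scipy 1.17.1) at the 95% level cover counting error only. They take counts as independent, which was not checked for the paired ends of a fragment. A count of 0 was given a limit of 3 counts. Introns of 6341 of 8642 well expressed genes held no alignments in either clone, so intronic RNA was not used.

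The clones, the gene lists and the windows were chosen with earlier results of these data known. Named genes were Sox2 and its neighbours within 2 Mb, the 15 largest ratios in each direction past 3-fold, up to 4 members past 3-fold of each list or up to 2 others as values, and the leading genes of named chromosomes and windows. Genes outside this rule were chosen after their values were seen. They were the other 10 genes past 3-fold, the members of the added gene families (prolactins, Sfrp and Dkk, Yap targets, globins, Foxa, glypicans and apolipoproteins), and Pou5f1, Nanog, Fgf4, T, Gsc, Mixl1, Sp5, Axin2, Krt18, Dnajb1, Junb, Mmp15, Rrad, Kitl and Flt1. The sets of histone genes and of small structural RNA genes were also drawn up after the values were seen. ChIP-seq of F123 cells, which the authors deposited as the same kind of counts, was summed within 2 kb of gene starts. Alternatives changed the library size, collapsing, depth, strand, pseudo-value, threshold and filters. The rules were run on simulated data with independent Poisson counts and no variation between clones. That run cannot check them for such variation or for counts that are not independent. H3K27ac of J1 cells was not used here. Python 3.11.15, numpy 2.4.6, pandas 2.3.3 and matplotlib 3.10.9 were used.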

Additional observations from a re-analysis of the deposited data

How the results depend on the processing

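The counts of 28 and 5 genes past 3-fold in the direction of CAST-/129+ and of CAST+/129- depended on the pseudo-value and the threshold. With a pseudo-value of 1 they were 94 and 51, and with 10 they were 10 and 0. At 2-fold they were 86 and 51, and at 5-fold 9 and 0. With genes of any counted length they were 43 and 12. Toward CAST+/129- the count was 3 with all distinct alignments as library size, with reads before collapsing and with the deeper library thinned to equal reads, where the counts toward CAST-/129+ were 22, 31 and 29. With reads before collapsing, 26 of the 28 genes remained. The counts were the same as reported with median-of-ratios scaling, both strands, at least 50 counts or protein-coding genes only. Without chromosome 8 they were 27 and 4, and with each chromosome's median subtracted 28 and 4, 2 settings added after the data were seen. The Sox2 log2 ratio was -0.26 with all alignments as library size. The chromosome 8 median was -0.48 in that setting, -0.50 and -0.33 with pseudo-values of 1 and 10, and -0.51 without one over the 279 genes with a mean of at least 20 FPKM, a setting that moves both choices at once and was added after the data were seen. The plus-strand RNA after the SE was 6.10-fold higher in CAST+/129- over 20 kb and 6.53-fold before collapsing. Of 232 list medians under other settings 13 changed sign. No paired analysis was possible because each clone had 1 library. At the depth of CAST-/129+ a gene of 1 kb under 0.493 FPKM there cannot be told from 0.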

Other observations

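Among embryonic globins, 2 of 9 globin genes, Hbb-bh1 and Hbb-y, passed 2-fold. These genes were looked up after their values were seen. Hbb-bh1, a globin of primitive red cells, had 28 counts in CAST-/129+ and 0 in CAST+/129-, where the limit of 3 counts is 0.391 FPKM, against 7.502 FPKM in CAST-/129+. Hbb-y had 26 counts against 1, a ratio of 53.4-fold (8.77 to 2189), and Hba-x had 23 against 5. The adult globins Hbb-b1 and Hbb-b2 had 0 counts in both clones. In wild type Hbb-bh1, Hbb-y and Hba-x had 0 counts each. The globin genes summed to 24.1 FPKM in CAST-/129+, 1.87 in CAST+/129- and 9.80 in CAST-/129-. All 3 Foxa genes had log2 ratios above 0 in the comparison, with Foxa1 at 4.70 FPKM in CAST-/129+ and 0.251 FPKM in CAST+/129-. Gpc4, the X-linked neighbour of Gpc3, was at 29.6 FPKM in CAST-/129+ and 11.6 FPKM in CAST+/129-, while Gpc1 was at 14.7 FPKM in CAST-/129+ and 10.3 FPKM in CAST+/129-. Kitl, the ligand of the Kit receptor, was at 7.74 FPKM in CAST-/129+ and 1.45 FPKM in CAST+/129-, and Flt1, a Vegf receptor gene, was at 6.49 FPKM in CAST-/129+ and 1.09 FPKM in CAST+/129-.

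Outside chromosome 8, windows of 25 neighbouring genes reached medians of 0.43 on chromosome 9, 0.33 on chromosome 13 and 0.31 on X, and the lowest was -0.29 on chromosome 7. The window on chromosome 13 holds histone genes of the Hist1 cluster. The window on chromosome 9 starts at the centromeric end with predicted genes that make up the higher side of its values, while the genes from Alkbh8 to Mtmr2 had log2 ratios from -0.33 to 0.19. Of the predicted genes, Gm10722 was at 413 FPKM in CAST-/129+ and 238 FPKM in CAST+/129- and 14.1 FPKM in wild type, and Gm10718 at 495 FPKM in CAST-/129+ and 276 FPKM in CAST+/129- and 20.8 FPKM in wild type. Both clones were thus far above wild type at these predicted genes, whose single counts are uncertain if their sequences are alike, and CAST-/129+ was the higher of the 2.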
